A study of Mus musculus with 5 samples.

Results

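The solute carrier (SLC) genes are the largest group of genes for membrane transporters of small molecules, and 155 of them were expressed in mouse embryonic stem cells (ESCs) and epiblast stem cells (EpiSCs). The members are the rows whose symbol begins with Slc, a family number, the letter a and a gene number, and whose mean over the 5 libraries was at least 1 FPKM (fragments per kilobase of transcript, scaled to a fixed number of mapped fragments). Among 23951 genes measured, 345 had such a symbol, 155 of them reached that mean and 190 did not, and the 15 Slco genes were left out. The members come from 42 of the 48 numbered families measured. They were chosen by their mean FPKM, so their expression is no finding. The pattern also takes 5 genes that are named for a transporter and were not counted as one, namely Slc7a6os, Slc4a1ap, Slc9a3r1, Slc9a3r2 and the read-through Slc10a3-ubl4, which leaves 150 transporter genes. The 28 rows with a letter other than a after the family number, among them most of the nucleotide sugar family, do not match the pattern.

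Transporters decide which nutrients and ions enter a cell and which waste products leave it. Facilitated carriers of the SLC2 family let glucose in, and carriers of the SLC16 family move lactate with a proton, outwards in cells that make much lactate. Amino acids enter through sodium-coupled carriers and leave or enter by exchange through light chains such as Slc7a5, which reach the membrane bound to the heavy chain Slc3a2. SLC39 proteins bring zinc into the cytosol and SLC30 proteins take it out, while the SLC25 family carries nucleotides, phosphate, carboxylates and amino acids across the inner mitochondrial membrane. Naive ESCs use both glycolysis and respiration, and primed cells such as EpiSCs are known for a stronger dependence on glycolysis.

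RNA sequencing covered 5 groups of 1 library each. EpiSCs were derived from E14 ESCs and kept as clumps on serum-coated plates in N2B27 medium, with Activin A at 20 ng/ml and FGF2 at 12 ng/ml. Of their 3 libraries one was untreated and the others had BMP-4 (10 ng/ml), added 1.5 h or 24 h before. E14 ESCs, an established mouse line, gave the other 2 libraries. One came from LIF with 10 ng/ml BMP-4 in a basal medium (the protocols name more than 1 such medium and do not say which was used) and one from LIF at 1000 U/ml with 15% fetal bovine serum on gelatin. These are called ESCs with BMP-4 and ESCs with serum, and values are labelled by time of BMP-4 in EpiSCs and by medium in ESCs. All libraries trace to 1 ESC line, and no group had a replicate. No difference below was tested, no p-value is given, and the 3 EpiSC and 2 ESC libraries are different conditions, not replicates.

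The steps between low FPKM values put depth at about 8370000 to 13330000 reads per library. The deposited 95% interval, given in parentheses after some values, is the only error at hand and is no spread between cultures. Over members at a mean of 1 to 5 FPKM the upper bound lay a median of 114% above the value, and over members at 20 to 100 FPKM a median of 56.4%. Naive marker genes (Zfp42, Esrrb, Tfcp2l1, Nr0b1, Klf4) summed to 1.84 to 2.02 FPKM in EpiSCs and 1425 and 1634 FPKM in ESCs (BMP-4, serum). Primed marker genes (Fgf5, Otx2, Pou3f1, Dnmt3b, Sox3) summed to 373 to 596 FPKM in EpiSCs and 63.0 and 62.0 FPKM in ESCs (BMP-4, serum), so both labels were met by the sums. Most of the EpiSC sum was Dnmt3b and Fgf5. Fgf5, Pou3f1 and Dnmt3b were at least 2-fold higher in every EpiSC library, and Otx2 and Sox3 were not. Fgf5, Otx2 and Sox3 were at least 2-fold lower at 24 h than untreated. Sox3 at 24 h, 1.60 FPKM, was no higher than in ESCs with BMP-4, 1.61 FPKM. Of genes of other cells, 4 of primitive endoderm (Gata4, Gata6, Sox17, Dab2) summed to 6.30 to 9.03 FPKM in EpiSCs and 0.807 and 0.872 FPKM in ESCs (BMP-4, serum), and all 4 had their lowest EpiSC value above their highest ESC value. Mesoderm genes (T, Mesp1, Hand2) summed to 11.9, 10.9 and 96.6 FPKM in EpiSCs (0, 1.5 and 24 h) and 0.697 and 0.184 FPKM in ESCs (BMP-4, serum). They were highest at 24 h, through T and Mesp1, and Hand2 was listed at 0 in EpiSCs. Neural genes (Sox1, Pax6, Neurog2) summed to 0.423 to 0.525 FPKM in EpiSCs and 9.02 and 3.13 FPKM in ESCs (BMP-4, serum), with Neurog2 listed at 0 in all 5. Fibroblast genes (Col1a1, Col1a2, Thy1, Postn) summed to 3.72 to 5.42 FPKM in EpiSCs and 4.54 and 2.70 FPKM in ESCs (BMP-4, serum). Trophoblast genes (Elf5, Hand1, Tfap2c) summed to 6.16 to 12.9 FPKM in EpiSCs and 10.5 and 6.60 FPKM in ESCs (BMP-4, serum), and nearly all of it was Tfap2c. The part of all these in the differences below was not tested. In bulk RNA fewer cells with a gene and less RNA per cell cannot be told apart.

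Transporter genes differed mainly between the cell types and little after BMP-4. A member is called higher or lower where FPKM + 1 was at least 2-fold apart, and differences are given as log2 of FPKM + 1, a scale that understates the change of low genes. Set against ESCs with serum, untreated EpiSCs had 26 of the 155 members higher and 15 lower, beside 11.6% and 9.55% of all genes expressed at that mean. Against ESCs with BMP-4 the counts were 24 higher and 18 lower, beside 11.0% and 10.0% of all genes. As shares of the members these are 16.8% and 9.68% against serum and 15.5% and 11.6% against BMP-4. These shares lie near the background for lower genes and somewhat above it for higher genes. The median log2 difference of the members was 0.18 against serum and 0.20 against BMP-4, and that of all genes -0.01 and 0.00. Deposited intervals were also apart for 6 higher and 1 lower member against serum (2.68% and 2.84% of all genes), and for 5 and 1 against BMP-4 (2.39% and 3.11%). Both comparisons share the untreated library.

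With all libraries used, the lowest EpiSC value of 15 members was at least 2-fold above the highest ESC value, and 12 members showed the reverse. The background is 7.21% of all genes higher and 6.62% lower. The 15 higher members include Slc39a8, Slc5a5, Slc25a24, Slc40a1, Slc16a10, Slc16a3, Slc27a2, Slc16a13, Slc4a11, Slc46a3, Slc1a4, Slc22a23, Slc25a30 and Slc7a6. The 12 lower members were Slc50a1, Slc25a12, Slc47a1, Slc5a11, Slc28a1, Slc29a3, Slc17a9, Slc25a20, Slc44a1, Slc6a8, Slc41a1 and Slc39a4. At a mean of 1 to 5 FPKM, 11 of 67 members (16.4%) were in these lists, against 19.7% of the other genes at that level. At 5 to 20 FPKM these were 10 of 50 members (20.0%), against 15.3%. At 20 to 100 FPKM they were 6 of 34 members (17.6%), against 7.63%, and at 100 FPKM or more 0 of 4, against 5.56%. A gene close to 0 in one cell type reaches the mean through the other, as 31 members did with a mean below 1 FPKM in ESCs or in EpiSCs, so counts over the members lean towards differences between cell types. In level, 119 members had at least 1 FPKM in all 5 libraries, 38 had a mean of at least 20 FPKM and 4 of at least 100 FPKM.

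**Figure D1:**
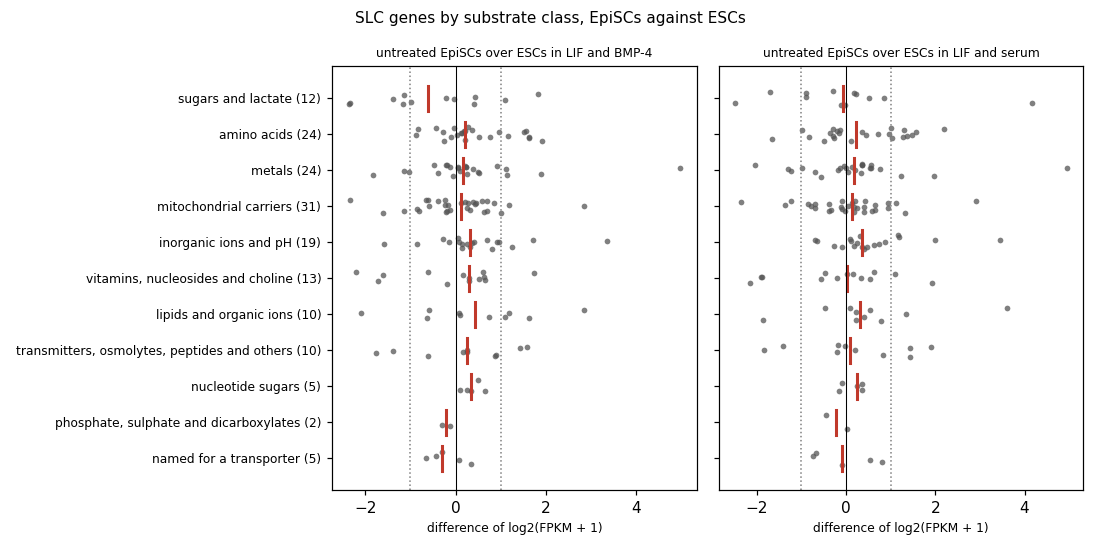
Difference of log2(FPKM + 1) for each of the 155 members by substrate class (number of members in parentheses), for untreated EpiSCs over ESCs with BMP-4 on the left and over ESCs with serum on the right. Each dot is 1 gene, red bars are class medians and dotted lines mark 2-fold; class medians lie between -0.60 and 0.42, and single genes such as Slc39a8 among the metals, at 4.97 and 4.95, stand far out.

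The members just inside the rule were Slc38a5, Slc4a5 and Slc17a9 with means of 1.01, 1.01 and 1.04 FPKM, and those just outside were Slc15a1, Slc29a4 and Slc10a3 with 0.929, 0.924 and 0.851 FPKM. Slc15a1, a peptide transporter gene of the gut, was listed at 0 in the 3 EpiSC libraries and stood at 3.19 and 1.45 FPKM in ESCs with BMP-4 and with serum, so the rule left out a gene with a large difference. In all, 20 of the 190 rows outside reached 1 FPKM in some library, and 41 were listed at 0 in all.

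Among the 12 sugar and lactate transporters, the glucose carrier Slc2a3 was lower in EpiSCs than in ESCs with BMP-4 and the lactate carrier Slc16a3 was much higher. Against ESCs with serum 1 of 12 was higher and 2 lower (class median -0.06), beside 11.6% and 9.55% of all genes. Against ESCs with BMP-4 2 were higher and 5 lower (median -0.60), beside 11.0% and 10.0%. Slc16a3 (MCT4, a lactate exporter of glycolytic cells; mm9 chromosome 11, 120809798 to 120820314) stood at 58.7, 62.9 and 53.2 FPKM in EpiSCs (0, 1.5 and 24 h) and 15.9 and 2.35 FPKM in ESCs (BMP-4, serum). The 3 EpiSC values lie close together, far above ESCs with BMP-4, which in turn lie above ESCs with serum. Untreated EpiSCs had 58.7 FPKM (27.9 to 89.5) and ESCs with serum 2.35 FPKM (0 to 4.94). The log2 difference was 4.16 against serum and 1.82 against BMP-4, where ESCs had 15.9 FPKM (4.99 to 26.7). The intervals were apart in both.

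Slc16a1 (MCT1, which carries lactate and pyruvate both ways) stood at 38.3, 38.6 and 36.3 FPKM in EpiSCs (0, 1.5 and 24 h) and 28.4 and 26.5 FPKM in ESCs (BMP-4, serum), under 2-fold apart everywhere. The share of Slc16a3 in the sum of both genes was 60.5, 62.0 and 59.5% in EpiSCs (0, 1.5 and 24 h) and 35.8 and 8.13% in ESCs (BMP-4, serum). The sum itself was 97.02, 101 and 89.5 FPKM in EpiSCs (0, 1.5 and 24 h) and 44.3 and 28.8 FPKM in ESCs (BMP-4, serum). These carriers reach the membrane with the help of basigin (Bsg) or embigin (Emb). Bsg stood at 301, 304 and 308 FPKM in EpiSCs (0, 1.5 and 24 h) and 325 and 277 FPKM in ESCs (BMP-4, serum), nearly level. Emb stood at 212, 213 and 126 FPKM in EpiSCs (0, 1.5 and 24 h) and 56.6 and 39.3 FPKM in ESCs (BMP-4, serum). It was highest in EpiSCs at 0 and 1.5 h, with a log2 difference of 2.40 at 0 h against serum and 1.89 against BMP-4. Ldha, the lactate dehydrogenase subunit that favours lactate, stood at 1073, 1164 and 1167 FPKM in EpiSCs (0, 1.5 and 24 h) and 827 and 490.1 FPKM in ESCs (BMP-4, serum). Pdk1, the gene of a kinase that inhibits pyruvate dehydrogenase, stood at 12.3, 13.7 and 11.9 FPKM in EpiSCs (0, 1.5 and 24 h) and 66.1 and 28.3 FPKM in ESCs (BMP-4, serum). It ran opposite to Slc16a3, 5.03-fold lower at 0 h than in ESCs with BMP-4, with intervals apart, and 2.20-fold lower than with serum.

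For glucose, Slc2a3 (GLUT3, a high-affinity carrier of embryonic and neural cells) stood at 94.6, 91.4 and 105 FPKM in EpiSCs (0, 1.5 and 24 h) and 213 and 177 FPKM in ESCs (BMP-4, serum). It was 2.24-fold lower in untreated EpiSCs than in ESCs with BMP-4 and 1.86-fold lower than in ESCs with serum, with overlapping intervals in both. Slc2a1 (GLUT1, the basal carrier of most cells) stood at 73.0, 60.4 and 71.1 FPKM in EpiSCs (0, 1.5 and 24 h) and 146 and 90.0 FPKM in ESCs (BMP-4, serum). The sum of both was 168, 152 and 176 FPKM in EpiSCs (0, 1.5 and 24 h) and 359 and 267 FPKM in ESCs (BMP-4, serum). Both ESC sums lie above all EpiSC sums. The hexokinase genes, which trap the glucose that enters, lay on the same side. Hk1 stood at 5.67, 6.47 and 5.35 FPKM in EpiSCs (0, 1.5 and 24 h) and 16.0 and 21.4 FPKM in ESCs (BMP-4, serum). Hk2 stood at 49.4, 48.1 and 48.1 FPKM in EpiSCs (0, 1.5 and 24 h) and 85.0 and 96.7 FPKM in ESCs (BMP-4, serum).

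Rarer members of the class also differed, and Slc50a1 and Slc5a11 reached the mean of 1 FPKM through ESCs alone. Slc50a1 (a sugar efflux carrier of the SWEET family) ranged over 0.0850 to 0.231 FPKM in EpiSCs and 5.21 and 5.87 FPKM in ESCs (BMP-4, serum). Slc5a11 (SMIT2, a sodium-coupled myo-inositol carrier) ranged over 0.0788 to 0.132 FPKM in EpiSCs and 4.85 and 2.70 FPKM in ESCs (BMP-4, serum). Both were at least 2-fold lower in every EpiSC library, with overlapping intervals. Slc5a3 (SMIT1, the other myo-inositol carrier) ran the other way at 1.70 to 2.38 FPKM in EpiSCs and 0.377 and 0.639 FPKM in ESCs (BMP-4, serum). Slc37a1, of the sugar phosphate antiporters of the endoplasmic reticulum, was 2.60-fold lower in untreated EpiSCs than in ESCs with BMP-4, at 1.42 and 5.27 FPKM, and its relatives Slc37a3 and Slc37a4 lay within 2-fold.

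**Figure D2:**
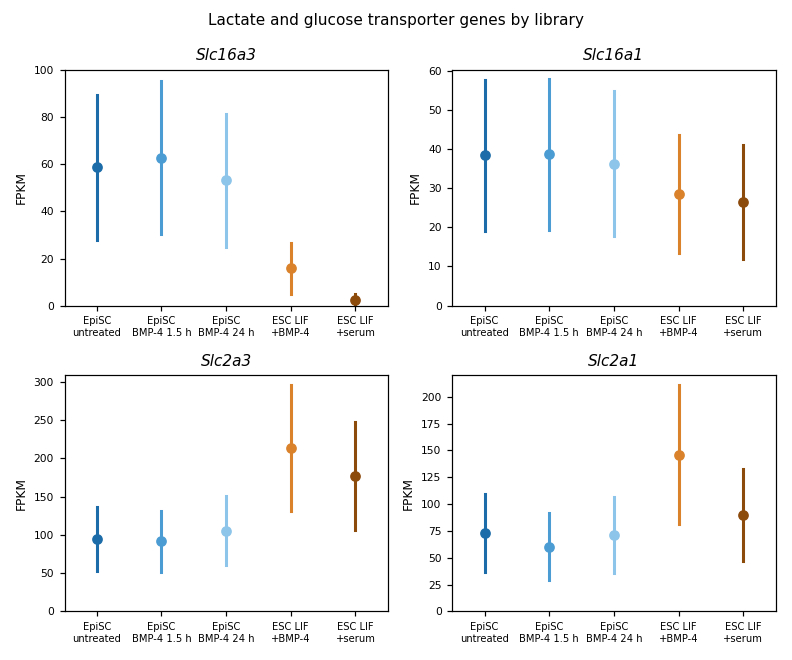
FPKM of 4 genes for lactate (Slc16a3, Slc16a1) and glucose (Slc2a3, Slc2a1) in each of the 5 libraries; dots are the deposited values and bars the deposited 95% intervals. Slc16a3 lies between 53.2 and 62.9 FPKM in EpiSCs and at 15.9 and 2.35 FPKM in ESCs with BMP-4 and with serum, while Slc16a1 is nearly level.

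Slc16a3 stood 5.04-fold higher in ESCs with BMP-4 than with serum, and Slc2a1 1.62-fold, under the threshold. For this reason their promoters are shown, 250 bases before to 50 after the RefSeq start (GRCm38.p6, both on the + strand). Slc16a1, under 2-fold apart everywhere, has 3 matches of ACGTG and 2 of GCGTG in its own promoter, which is not shown. Capitals mark ACGTG and GCGTG on either strand, the core letters bound by hypoxia-inducible factors. Slc16a3 (chr11:120948817-120949116) has ACGTG at 27 and at 14 bases before the start, and Slc2a1 (chr4:119108495-119108794) has ACGTG at 36 and GCGTG, on the other strand, at 61 bases before it.
Slc16a3: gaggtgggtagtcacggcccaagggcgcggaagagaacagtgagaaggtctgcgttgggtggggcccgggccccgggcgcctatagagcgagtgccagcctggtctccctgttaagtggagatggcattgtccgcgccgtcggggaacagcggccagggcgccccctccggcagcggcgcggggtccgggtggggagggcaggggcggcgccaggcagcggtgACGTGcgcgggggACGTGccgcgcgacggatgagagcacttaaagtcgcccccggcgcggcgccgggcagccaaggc
Slc2a1: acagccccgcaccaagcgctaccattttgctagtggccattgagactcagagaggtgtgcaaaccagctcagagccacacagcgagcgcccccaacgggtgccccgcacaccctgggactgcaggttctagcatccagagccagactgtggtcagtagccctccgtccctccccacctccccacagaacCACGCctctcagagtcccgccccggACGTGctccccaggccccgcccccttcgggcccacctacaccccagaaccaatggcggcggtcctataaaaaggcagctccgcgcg
At least one of the 2 cores occurs in 75 of 117 members with a promoter in the table (64.1%), in 65.6% of all expressed genes and in 43.8% of all promoters, so a match is common and describes letters only.

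Of 24 amino acid transporters 8 were higher and 1 lower at 0 h against serum (median 0.23), beside 11.6% and 9.55% of all genes. Against ESCs with BMP-4 6 were higher and 0 lower (median 0.22), beside 11.0% and 10.0%. The highest were the heavy chain Slc3a2 and its partner Slc7a5 (LAT1, which exchanges large neutral amino acids), the neutral amino acid carrier Slc38a2 (SNAT2) and the cationic carrier Slc7a3. Slc3a2 stood at 82.1, 85.0 and 71.3 FPKM in EpiSCs (0, 1.5 and 24 h) and 81.0 and 117 FPKM in ESCs (BMP-4, serum). Slc7a5 had 54.7, 53.3 and 44.6 FPKM in EpiSCs (0, 1.5 and 24 h) and 48.3 and 67.0 FPKM in ESCs (BMP-4, serum). Slc38a2 had 66.2, 58.4 and 65.3 FPKM in EpiSCs (0, 1.5 and 24 h) and 59.8 and 47.9 FPKM in ESCs (BMP-4, serum). None of these 3 was 2-fold apart between any of the pairs of libraries compared.

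The other light chains of Slc3a2 differed by cell type. Slc7a7 (y+LAT1, which exports cationic against neutral amino acids) stood at 46.0, 40.8 and 30.5 FPKM in EpiSCs (0, 1.5 and 24 h) and 15.4 and 17.2 FPKM in ESCs (BMP-4, serum). Slc7a6 (y+LAT2, of the same exchange type) stood at 34.1, 34.1 and 33.7 FPKM in EpiSCs (0, 1.5 and 24 h) and 11.0 and 16.2 FPKM in ESCs (BMP-4, serum). It was at least 2.01-fold higher in every EpiSC library. Both genes are lowest in ESCs with BMP-4. Their sum was 80.0, 74.9 and 64.2 FPKM in EpiSCs (0, 1.5 and 24 h) and 26.4 and 33.4 FPKM in ESCs (BMP-4, serum). Slc7a8 (LAT2) ranged over 1.10 to 2.31 FPKM in EpiSCs and 0.0810 and 0.113 FPKM in ESCs (BMP-4, serum). Summed, the 4 light chains expressed (Slc7a5, Slc7a6, Slc7a7, Slc7a8) stood at 137, 130.1 and 109.9 FPKM in EpiSCs (0, 1.5 and 24 h) and 74.8 and 101 FPKM in ESCs (BMP-4, serum). The share of Slc7a5 in that sum was 39.9, 41.0 and 40.6% in EpiSCs (0, 1.5 and 24 h) and 64.6 and 66.7% in ESCs (BMP-4, serum).

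Slc16a10 (TAT1, a carrier of aromatic amino acids and thyroid hormone) stood at 4.06, 3.48 and 9.66 FPKM in EpiSCs (0, 1.5 and 24 h) and 0.342 and 0.105 FPKM in ESCs (BMP-4, serum). EpiSC values were all above those in ESCs, and the highest was at 24 h. It was the one amino acid transporter with intervals apart in untreated EpiSCs against serum, at 4.06 FPKM (0.692 to 7.42) and 0.105 FPKM (0 to 0.343). Slc1a4 (ASCT1, an exchanger of alanine, serine and cysteine) stood at 10.2, 10.9 and 13.2 FPKM in EpiSCs (0, 1.5 and 24 h) and 2.61 and 3.56 FPKM in ESCs (BMP-4, serum). Its relative Slc1a5 (ASCT2, which brings in glutamine) stood at 9.80, 11.2 and 9.81 FPKM in EpiSCs (0, 1.5 and 24 h) and 11.9 and 18.1 FPKM in ESCs (BMP-4, serum), within 2-fold. Slc43a1 (LAT3) was 2.77-fold higher in untreated EpiSCs than in ESCs with serum, at 4.21 and 0.885 FPKM, and 2.16-fold higher in ESCs with BMP-4 than with serum, at 3.07 FPKM. Slc36a4 was low, at 1.56 to 2.19 FPKM in EpiSCs and 0.299 and 0.440 FPKM in ESCs (BMP-4, serum). The glutamine carrier Slc38a3 (SNAT3) was also low, at 1.47 to 2.02 FPKM in EpiSCs and 0.555 and 0.243 FPKM in ESCs (BMP-4, serum). The sodium-coupled carriers Slc38a1, Slc38a4 and Slc38a10 were within 2-fold, with Slc38a4 at 40.3 to 45.8 FPKM in EpiSCs and 28.0 and 31.1 FPKM in ESCs (BMP-4, serum).

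The cationic amino acid carriers of the CAT type ran differently from Slc7a6 and Slc7a7. Slc7a1 (CAT1) stood at 2.07, 1.66 and 1.66 FPKM in EpiSCs (0, 1.5 and 24 h) and 4.61 and 8.69 FPKM in ESCs (BMP-4, serum). It was 3.15-fold lower in untreated EpiSCs than in ESCs with serum and 1.82-fold lower than with BMP-4, with overlapping intervals. Slc7a3 (CAT3) stood at 53.0, 50.5 and 27.5 FPKM in EpiSCs (0, 1.5 and 24 h) and 71.8 and 63.9 FPKM in ESCs (BMP-4, serum). The 24 h value was the lowest of the 5, 1.90-fold below untreated EpiSCs. The share of Slc7a3 in the summed FPKM of both was 96.2, 96.8 and 94.3% in EpiSCs (0, 1.5 and 24 h) and 94.0 and 88.0% in ESCs (BMP-4, serum).

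Several amino acid transporters are known targets of Atf4, the transcription factor that answers amino acid shortage, and 9 such genes were listed (Slc7a11, Slc7a5, Slc3a2, Slc7a3, Slc7a1, Slc38a2, Slc1a4, Slc1a5, Slc6a9). Of these 7 reached the mean of 1 FPKM. Atf4 itself stood at 202, 199.8 and 176 FPKM in EpiSCs (0, 1.5 and 24 h) and 75.9 and 334 FPKM in ESCs (BMP-4, serum). It was highest in ESCs with serum and lowest in ESCs with BMP-4. Of the 7 transporters 0 were higher and 0 lower in ESCs with BMP-4 than with serum, beside 2.61% and 1.28% of all genes. Their median was -0.46 beside -0.02 for all genes. With so few genes, counts of 0 lie near those shares. Asns, the asparagine synthetase gene and another target, stood at 34.9, 32.7 and 34.7 FPKM in EpiSCs (0, 1.5 and 24 h) and 82.8 and 142 FPKM in ESCs (BMP-4, serum). In untreated EpiSCs against serum 1 of the 7, Slc1a4, was higher and 1, Slc7a1, lower, beside 11.6% and 9.55% of all genes. Slc7a11 (xCT, which brings in cystine) was low throughout, at 0.437 to 0.568 FPKM in EpiSCs and 0.218 and 0.192 FPKM in ESCs (BMP-4, serum). Of the 10 other amino acid genes listed 0 were higher and 5 lower in untreated EpiSCs against serum, beside 11.6% and 9.55% of all genes. The 5 were Asns, Ddit3, Chac1, Trib3 and Tdh, and only Asns and Tdh had intervals apart. Tdh differed most, at 0.618 FPKM in untreated EpiSCs and 226 FPKM in ESCs with serum. Atf4 and Psat1 were under 2-fold in that comparison, at 1.65-fold and 1.47-fold lower.

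**Figure D3:**
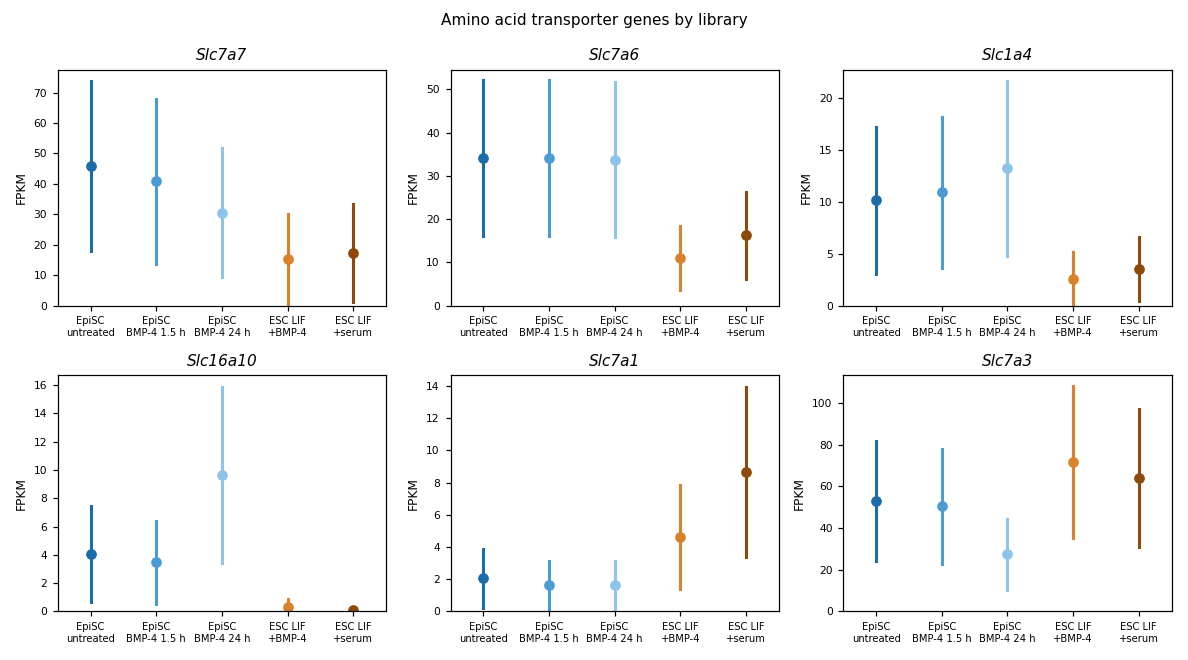
FPKM of 6 amino acid transporter genes in each library, with deposited values as dots and deposited 95% intervals as bars. Slc7a6, Slc1a4 and Slc16a10 are higher in every EpiSC library, Slc7a7 is 2.58-fold and 2.87-fold higher at 0 h than in ESCs with serum and with BMP-4, Slc7a1 is 3.15-fold and 1.82-fold lower, and Slc7a3 is lowest at 24 h with 27.5 FPKM.

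Of 24 metal transporters 3 were higher and 3 lower at 0 h against serum (median 0.17), beside 11.6% and 9.55% of all genes. Against ESCs with BMP-4 4 were higher and 3 lower (median 0.16), beside 11.0% and 10.0%. Slc39a8 (ZIP8, an importer of zinc and manganese at the cell surface; mm9 chromosome 3, 135488243 to 135551536) had the largest difference between untreated EpiSCs and either ESC library of all members. It stood at 35.2, 39.3 and 27.6 FPKM in EpiSCs (0, 1.5 and 24 h) and 0.155 and 0.171 FPKM in ESCs (BMP-4, serum). The log2 differences at 0 h were 4.95 against serum and 4.97 against BMP-4. Untreated EpiSCs had 35.2 FPKM (15.3 to 55.0), and the upper bounds were 0.551 and 0.497 FPKM in ESCs with serum and with BMP-4. Its near relative Slc39a14 (ZIP14) stood at 10.6, 9.72 and 6.12 FPKM in EpiSCs (0, 1.5 and 24 h) and 8.95 and 11.7 FPKM in ESCs (BMP-4, serum). Its lowest value was at 24 h.

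Slc39a4 (ZIP4, the importer through which the gut takes up zinc) ran the other way, at 2.70, 2.50 and 1.54 FPKM in EpiSCs (0, 1.5 and 24 h) and 6.56 and 14.1 FPKM in ESCs (BMP-4, serum). It was the metal transporter with the lowest log2 difference against serum, -2.03, with overlapping intervals. Slc39a10, which takes up zinc at the surface, was level at 25.4 to 28.2 FPKM in EpiSCs and 23.6 and 24.3 FPKM in ESCs (BMP-4, serum). All 10 SLC39 members summed to 224, 225 and 215 FPKM in EpiSCs (0, 1.5 and 24 h) and 155 and 165 FPKM in ESCs (BMP-4, serum). Without Slc39a8 the sum was 189, 186 and 187 FPKM in EpiSCs (0, 1.5 and 24 h) and 155 and 165 FPKM in ESCs (BMP-4, serum). Most of what remained between the cell types lay in Slc39a7 (ZIP7, which frees zinc from the endoplasmic reticulum), at 89.1, 89.4 and 84.3 FPKM in EpiSCs (0, 1.5 and 24 h) and 61.7 and 60.7 FPKM in ESCs (BMP-4, serum). A read-through gene shares 84.6% of the Slc39a7 transcript, which leaves its level uncertain.

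Of the exporters, Slc30a1 (ZnT1, the surface exporter that metal-responsive transcription factor 1, Mtf1, switches on in mouse cells) stood at 4.68, 4.75 and 4.59 FPKM in EpiSCs (0, 1.5 and 24 h) and 6.91 and 12.3 FPKM in ESCs (BMP-4, serum). The metallothionein genes, which bind zinc and answer to the same factor, followed the same order. Mt1 stood at 25.4, 25.2 and 17.6 FPKM in EpiSCs (0, 1.5 and 24 h) and 43.2 and 93.9 FPKM in ESCs (BMP-4, serum). Mt2 had 58.8, 56.2 and 38.0 FPKM in EpiSCs (0, 1.5 and 24 h) and 112 and 310.0 FPKM in ESCs (BMP-4, serum). In all 3 genes ESCs with serum were highest, ESCs with BMP-4 second and the EpiSC libraries lowest. In the pairs of libraries compared, intervals overlapped throughout for Slc30a1 and Mt1. For Mt2 they were apart only at 0 h against serum. Mtf1 itself ranged over 2.12 to 2.44 FPKM in EpiSCs and 3.44 and 4.22 FPKM in ESCs (BMP-4, serum). Mt1 was 2.15-fold and Mt2 2.75-fold lower in ESCs with BMP-4 than with serum, and Slc30a1 1.69-fold, under the threshold. All 8 SLC30 members summed to 71.3, 70.9 and 76.3 FPKM in EpiSCs (0, 1.5 and 24 h) and 63.5 and 66.7 FPKM in ESCs (BMP-4, serum). Slc30a9 alone stood at 25.4, 25.9 and 27.8 FPKM in EpiSCs (0, 1.5 and 24 h) and 13.0 and 14.5 FPKM in ESCs (BMP-4, serum). Its gap between the cell types is wider than that of the sum, so the rest of the sum was not higher in EpiSCs. Slc30a2 (ZnT2, which loads zinc into vesicles) stood at 1.63, 1.41 and 4.94 FPKM in EpiSCs (0, 1.5 and 24 h) and 8.36 and 4.23 FPKM in ESCs (BMP-4, serum). Slc30a3 (ZnT3, of synaptic vesicles) ranged over 1.35 to 2.44 FPKM in EpiSCs and 0.346 and 0.242 FPKM in ESCs (BMP-4, serum).

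The promoters of Slc30a1 and Slc39a8 are shown because these 2 zinc genes stood on opposite sides in EpiSCs. Capitals mark TGCACNC and TGCGCNC, the core letters of the metal response element, on either strand, and in Slc39a8 also ACGTG and GCGTG. The Slc30a1 promoter holds 1 match of GCGTG too, on the other strand, which is left in lower case. Slc30a1 (GRCm38.p6 chr1:191906531-191906830, + strand) has TGCACNC on the other strand at 43 bases before the start, within GAGTGCA, and TGCGCNC on the other strand within GAGCGCA, after the start. RefSeq gives Slc39a8 a pair of starts on the + strand: the window of the upstream one (chr3:135825029-135825328) holds none of these letters, and that of the downstream one (chr3:135825407-135825706) holds TGCACNC at 19, GCGTG at 113 and the palindrome CACGTG, which matches ACGTG on both strands, at 71 bases before the start.
Slc30a1: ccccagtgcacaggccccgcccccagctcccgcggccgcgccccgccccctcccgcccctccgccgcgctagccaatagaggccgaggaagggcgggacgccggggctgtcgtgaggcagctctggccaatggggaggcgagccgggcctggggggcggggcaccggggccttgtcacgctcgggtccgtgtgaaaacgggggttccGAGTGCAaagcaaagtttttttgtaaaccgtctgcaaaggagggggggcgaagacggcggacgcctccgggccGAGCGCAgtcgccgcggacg
Slc39a8, upstream start: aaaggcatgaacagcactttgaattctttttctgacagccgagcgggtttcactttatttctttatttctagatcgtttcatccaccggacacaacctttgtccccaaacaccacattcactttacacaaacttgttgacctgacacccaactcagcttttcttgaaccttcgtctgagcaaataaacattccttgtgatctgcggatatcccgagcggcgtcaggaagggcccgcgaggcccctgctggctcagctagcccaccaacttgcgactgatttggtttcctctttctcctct
Slc39a8, downstream start: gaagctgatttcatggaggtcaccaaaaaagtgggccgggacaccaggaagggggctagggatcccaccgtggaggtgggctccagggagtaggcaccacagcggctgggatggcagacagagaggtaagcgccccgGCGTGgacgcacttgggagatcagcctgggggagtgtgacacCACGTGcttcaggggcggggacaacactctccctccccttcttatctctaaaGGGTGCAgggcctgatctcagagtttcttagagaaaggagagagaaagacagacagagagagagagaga
One of the 2 metal cores occurs in 44 of 117 member promoters (37.6%), in 37.8% of those of all expressed genes and in 25.6% of all promoters, so these matches do not set the members apart.

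An iron exporter and a magnesium carrier also differed between the cell types. Slc40a1 (ferroportin, the iron exporter; mm9 chromosome 1, 45964915 to 45982439) stood at 3.05, 3.71 and 4.90 FPKM in EpiSCs (0, 1.5 and 24 h) and 0.0978 and 0.0342 FPKM in ESCs (BMP-4, serum). It was near 0 in ESCs, but the interval at 0 h (0.0470 to 6.05) overlapped those of both ESC libraries. Their upper bounds were 0.307 and 0.124 FPKM (BMP-4, serum). Slc11a2 (DMT1, which brings ferrous iron into the cytosol) was level at 6.69 to 7.16 FPKM in EpiSCs and 5.74 and 7.23 FPKM in ESCs (BMP-4, serum). The transferrin receptor gene Tfrc stood at 86.1, 79.0 and 76.6 FPKM in EpiSCs (0, 1.5 and 24 h) and 117 and 119.9 FPKM in ESCs (BMP-4, serum). Ferritin genes, which store iron, lay lower at 0 h than in ESCs with serum, Fth1 by 2.03-fold and Ftl1 by 2.31-fold. Against ESCs with BMP-4 both were under 2-fold, at 1.34-fold and 1.85-fold lower. The copper importer Slc31a1 (CTR1) ranged over 11.1 to 11.3 FPKM in EpiSCs and 10.9 and 8.78 FPKM in ESCs (BMP-4, serum). Atox1, a copper chaperone gene, ranged over 68.3 to 74.3 FPKM in EpiSCs and 82.6 and 72.5 FPKM in ESCs (BMP-4, serum). Slc41a1, a magnesium carrier, stood at 4.07, 3.98 and 4.11 FPKM in EpiSCs (0, 1.5 and 24 h) and 10.2 and 11.6 FPKM in ESCs (BMP-4, serum). It was at least 2.19-fold lower in every EpiSC library.

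**Figure D4:**
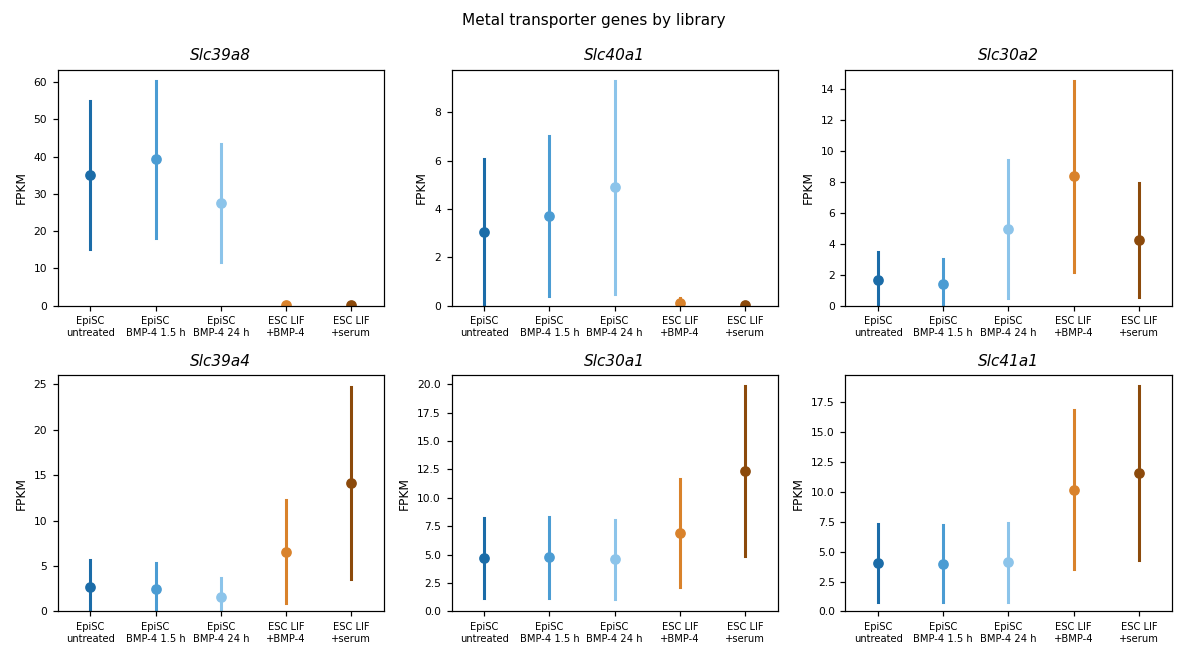
FPKM of 6 metal transporter genes in each library, with deposited values as dots and deposited 95% intervals as bars. Slc39a8 is high in EpiSCs and near 0 in ESCs. Slc40a1 lies at 3.05 to 4.90 FPKM in EpiSCs and near 0 in ESCs, with overlapping intervals at 0 h. Slc39a4 and Slc41a1 are lower in every EpiSC library. Slc30a1 at 0 h is 2.35-fold lower than in ESCs with serum and 1.39-fold lower than with BMP-4. Slc30a2 stands at 4.94 FPKM after 24 h of BMP-4, against 1.63 FPKM untreated.

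The 31 mitochondrial carriers held the most abundant members. Against ESCs with serum 3 were higher and 3 lower in untreated EpiSCs (median 0.12), beside 11.6% and 9.55% of all genes. Against ESCs with BMP-4 the counts were 2 and 3 (median 0.11), beside 11.0% and 10.0%. Slc25a3 (the phosphate carrier) stood at 297, 294 and 284 FPKM in EpiSCs (0, 1.5 and 24 h) and 217 and 220.0 FPKM in ESCs (BMP-4, serum). Slc25a4 and Slc25a5, the carriers that exchange ADP for ATP, differed in their balance. Slc25a4 stood at 289.6, 282 and 265 FPKM in EpiSCs (0, 1.5 and 24 h) and 161 and 244 FPKM in ESCs (BMP-4, serum). Slc25a5 had 269.9, 268 and 277 FPKM in EpiSCs (0, 1.5 and 24 h) and 311 and 238 FPKM in ESCs (BMP-4, serum). Slc25a3, Slc25a4 and Slc25a5 gave 29.3, 29.3 and 29.4% of the summed FPKM of all members in EpiSCs at 0, 1.5 and 24 h, against 24.6 and 25.5% in ESCs with BMP-4 and with serum. Within the ADP/ATP pair Slc25a4 gave 51.8, 51.3 and 49.0% in EpiSCs (0, 1.5 and 24 h) and 34.1 and 50.6% in ESCs (BMP-4, serum). The share was lowest in ESCs with BMP-4, with overlapping intervals for both genes. A processed pseudogene matches 71.5% of the Slc25a5 transcript, so its level is uncertain.

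Of the aspartate-glutamate carriers, which serve the malate-aspartate shuttle that brings reducing equivalents into mitochondria, Slc25a12 was lower in every EpiSC library, and Slc25a13 passed 2-fold at 0 h against ESCs with BMP-4 only. Slc25a12 (aralar; mm9 chromosome 2, 71112352 to 71205611) stood at 7.16, 7.68 and 7.25 FPKM in EpiSCs (0, 1.5 and 24 h) and 40.3 and 40.4 FPKM in ESCs (BMP-4, serum). Untreated EpiSCs had 7.16 FPKM (1.39 to 12.9) and ESCs with serum 40.4 FPKM (18.4 to 62.4). It was 5.07-fold lower at 0 h than in ESCs with serum and 5.07-fold lower than with BMP-4. It was the only member lower with intervals apart in these 2 comparisons. Slc25a13 (citrin) stood at 29.5, 27.9 and 28.0 FPKM in EpiSCs (0, 1.5 and 24 h) and 66.8 and 53.7 FPKM in ESCs (BMP-4, serum). At 0 h it was 2.22-fold lower than in ESCs with BMP-4 and 1.80-fold lower than with serum, with overlapping intervals. The sum of both was 36.6, 35.5 and 35.3 FPKM in EpiSCs (0, 1.5 and 24 h) and 107 and 94.1 FPKM in ESCs (BMP-4, serum). The share of Slc25a12 in it was 19.5, 21.6 and 20.6% in EpiSCs (0, 1.5 and 24 h) and 37.7 and 42.9% in ESCs (BMP-4, serum). Slc25a11, the oxoglutarate-malate carrier that completes the shuttle, was level at 22.8 to 23.7 FPKM in EpiSCs and 26.3 and 21.3 FPKM in ESCs (BMP-4, serum).

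Slc25a20, which brings acylcarnitines in for fatty acid oxidation, stood at 6.62, 6.25 and 6.76 FPKM in EpiSCs (0, 1.5 and 24 h) and 22.3 and 18.7 FPKM in ESCs (BMP-4, serum). It was at least 2.54-fold lower in every EpiSC library. Slc25a24, an exchanger of ATP-magnesium for phosphate that calcium regulates, stood at 9.44, 8.68 and 10.1 FPKM in EpiSCs (0, 1.5 and 24 h) and 0.456 and 0.376 FPKM in ESCs (BMP-4, serum). Its intervals were apart in untreated EpiSCs against both ESC libraries. Its relative Slc25a23 ranged over 2.58 to 3.39 FPKM in EpiSCs and 2.52 and 1.24 FPKM in ESCs (BMP-4, serum). Slc25a25, of the same group, ranged over 7.57 to 8.63 FPKM in EpiSCs and 10.2 and 9.29 FPKM in ESCs (BMP-4, serum). Slc25a30, of the uncoupling protein group, stood at 28.5, 25.7 and 27.1 FPKM in EpiSCs (0, 1.5 and 24 h) and 11.9 and 10.9 FPKM in ESCs (BMP-4, serum). Slc25a10, the dicarboxylate carrier, was 2.18-fold higher in untreated EpiSCs than in ESCs with serum, at 3.12 and 0.887 FPKM. Slc25a40 was 2.34-fold lower, at 4.05 and 10.8 FPKM.

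Slc25a1, the citrate carrier that supplies the cytosol with citrate for lipid synthesis, stood at 52.2, 49.1 and 65.0 FPKM in EpiSCs (0, 1.5 and 24 h) and 61.8 and 26.6 FPKM in ESCs (BMP-4, serum). The serum library was the low one. Carriers of iron, folate and S-adenosylmethionine (Slc25a28, Slc25a37, Slc25a32, Slc25a26) all lay within 2-fold in the comparisons of untreated EpiSCs with ESCs. Of mitochondrial transport genes with other names, the pyruvate carrier gene Mpc1 ranged over 3.49 to 3.63 FPKM in EpiSCs and 6.81 and 6.69 FPKM in ESCs (BMP-4, serum). Its partner Mpc2 ranged over 7.69 to 8.997 FPKM in EpiSCs and 9.77 and 10.8 FPKM in ESCs (BMP-4, serum). In a list of 8 such genes, Mpc1, Mpc2 and Tspo among them, 0 were higher and 0 lower at 0 h against serum, beside 11.6% and 9.55% of all genes. Against BMP-4 0 were higher and 1, Tspo, lower, beside 11.0% and 10.0%. Tspo was low, at 1.74 FPKM at 0 h and 5.59 FPKM in ESCs with BMP-4, with overlapping intervals.

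**Figure D5:**
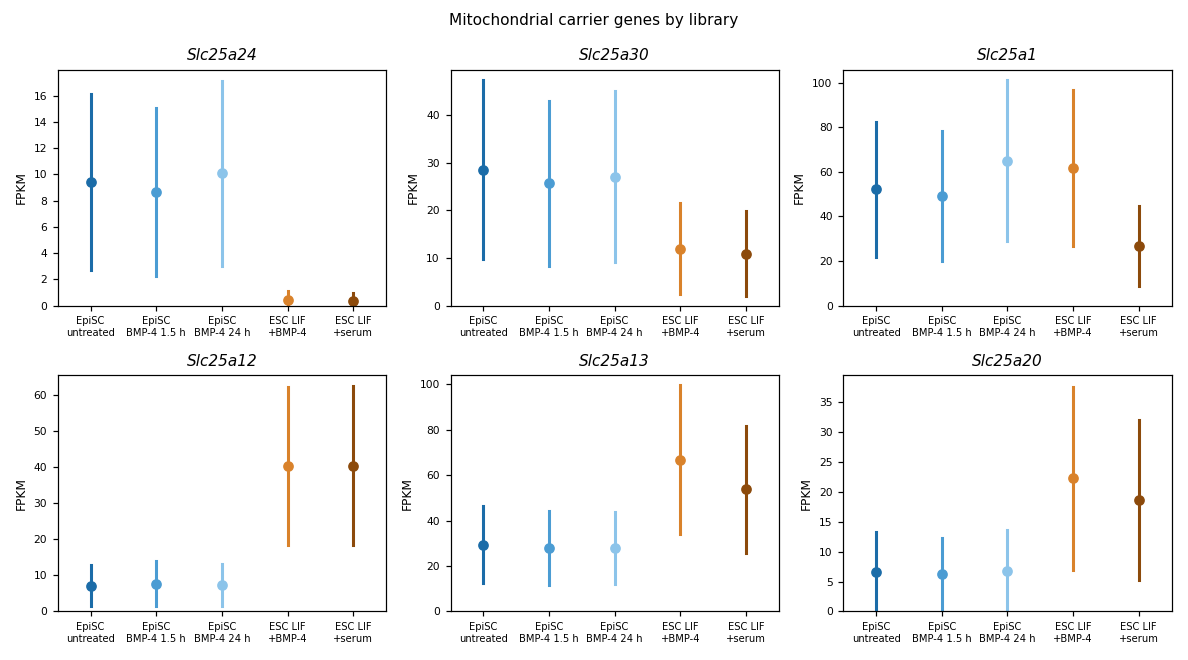
FPKM of 6 mitochondrial carrier genes in each library, with deposited values as dots and deposited 95% intervals as bars. Slc25a24 and Slc25a30 are higher in EpiSCs than in ESCs, Slc25a12 and Slc25a20 lower, and Slc25a1 stands at 61.8 FPKM in ESCs with BMP-4 and 26.6 FPKM with serum.

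Of the 19 carriers of inorganic ions and protons, 4 were higher and 0 lower at 0 h against serum (median 0.35). Beside these stand 11.6% and 9.55% of all genes. Against BMP-4 the counts at 0 h were 3 and 1 (median 0.32), beside 11.0% and 10.0%. Slc5a5 (NIS, the sodium-iodide symporter that concentrates iodide in the thyroid; mm9 chromosome 8, 73406788 to 73416656) stood at 15.7, 16.4 and 10.9 FPKM in EpiSCs (0, 1.5 and 24 h) and 0.646 and 0.519 FPKM in ESCs (BMP-4, serum). Its intervals were apart at 0 h against both ESC libraries. Slc4a11 stood at 12.4, 9.86 and 12.5 FPKM in EpiSCs (0, 1.5 and 24 h) and 3.11 and 2.39 FPKM in ESCs (BMP-4, serum). The potassium-chloride carrier Slc12a4 stayed within 2-fold at 6.30 to 7.45 FPKM in EpiSCs and 8.32 and 6.99 FPKM in ESCs (BMP-4, serum). The low Slc4a5, a sodium-bicarbonate carrier, was 3.02-fold lower in untreated EpiSCs than in ESCs with BMP-4, at 0.248 and 2.77 FPKM.

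Slc16a13, of the monocarboxylate carrier family, stood at 7.33, 7.43 and 7.95 FPKM in EpiSCs (0, 1.5 and 24 h) and 1.78 and 1.22 FPKM in ESCs (BMP-4, serum). In the mixed class of 10 that holds it, 3 were higher and 2 lower against serum (median 0.08), beside 11.6% and 9.55% of all genes. Against BMP-4 the counts were 2 and 2 (median 0.25), beside 11.0% and 10.0%. Slc6a8, the creatine carrier, was lower, at 4.65, 5.21 and 5.21 FPKM in EpiSCs (0, 1.5 and 24 h) and 13.8 and 19.3 FPKM in ESCs (BMP-4, serum). Slc17a9, the vesicular nucleotide carrier, was also lower, at 0.0347 to 0.169 FPKM in EpiSCs and 2.86 and 2.02 FPKM in ESCs (BMP-4, serum). Slc6a6, the taurine carrier, stayed within 2-fold at 17.2 to 21.9 FPKM in EpiSCs and 27.0 and 20.0 FPKM in ESCs (BMP-4, serum).

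Among 10 carriers of lipids and organic ions 2 were higher and 1 lower against serum (median 0.31), beside 11.6% and 9.55% of all genes. Against BMP-4 the counts were 4 and 1 (median 0.42), beside 11.0% and 10.0%. Slc27a2 (mm9 chromosome 2, 126378760 to 126413979), which activates very long chain fatty acids and takes part in their uptake, stood at 64.9, 54.5 and 27.0 FPKM in EpiSCs (0, 1.5 and 24 h) and 8.15 and 4.41 FPKM in ESCs (BMP-4, serum). The intervals were apart at 0 h against both ESC libraries. Its relatives Slc27a1, Slc27a3 and Slc27a4 stayed within 2-fold in these comparisons. Slc47a1 (MATE1, an exporter of organic cations) ranged over 0.0285 to 0.116 FPKM in EpiSCs and 3.79 and 3.04 FPKM in ESCs (BMP-4, serum). Slc33a1, which carries acetyl-CoA into the endoplasmic reticulum, was 3.07-fold higher in untreated EpiSCs than in ESCs with BMP-4, at 8.29 and 2.02 FPKM. Another transcript shares 36.1% of its sequence.

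Among 13 carriers of vitamins, nucleosides and choline 2 were higher and 3 lower against serum (median 0.03), beside 11.6% and 9.55% of all genes. Against BMP-4 the counts were 1 and 3 (median 0.29), beside 11.0% and 10.0%. Slc44a1, a choline carrier, stood at 2.63, 3.22 and 3.87 FPKM in EpiSCs (0, 1.5 and 24 h) and 10.9 and 15.0 FPKM in ESCs (BMP-4, serum). The nucleoside carriers Slc28a1 (CNT1) and Slc29a3 (ENT3, of lysosomes) were both at least 2-fold lower in every EpiSC library. Slc28a1 ranged over 0.285 to 0.760 FPKM in EpiSCs and 4.90 and 3.79 FPKM in ESCs (BMP-4, serum). The main nucleoside carrier by level, Slc29a1 (ENT1), stayed within 2-fold at 17.9 to 21.1 FPKM in EpiSCs and 32.6 and 31.8 FPKM in ESCs (BMP-4, serum). Slc46a3, a lysosomal protein, was higher, at 2.00 to 2.97 FPKM in EpiSCs and 0.187 and 0.0491 FPKM in ESCs (BMP-4, serum). The folate carrier Slc19a1 and the thiamine carrier Slc19a2 stayed within 2-fold. In the classes of 5 nucleotide sugar carriers and of 2 phosphate carriers (Slc20a1, Slc20a2) 0 members were 2-fold apart in the comparisons of untreated EpiSCs with ESCs, and the same held for the 5 genes only named for transporters.

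Few transporters of EpiSCs were 2-fold apart after BMP-4. At 1.5 h 0 members were higher and 0 lower than untreated, beside 0.236% and 0.182% of all genes, and the median log2 difference was 0.00. After 24 h 2 were higher and 1 lower, beside 0.654% and 0.527% of all genes. The comparisons at 1.5 h and 24 h share the untreated library. Slc27a2 was 2.35-fold lower after 24 h, at 27.0 FPKM (10.3 to 43.8) against 64.9 FPKM (30.6 to 99.2) untreated, and stood at 54.5 FPKM (24.7 to 84.3) after 1.5 h. Slc16a10 was 2.11-fold higher after 24 h, at 9.66 FPKM (3.44 to 15.9) against 4.06 FPKM (0.692 to 7.42) untreated. Slc30a2 was 2.26-fold higher, at 4.94 FPKM (0.504 to 9.38) against 1.63 FPKM (0 to 3.46) untreated. All 3 had overlapping intervals, and 0 members were apart with their intervals in any of these comparisons. Of all genes 0.0273% were higher and 0% lower with intervals apart at 1.5 h, and 0.0545% and 0.0273% at 24 h against untreated.

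Compared with 1.5 h directly, 24 h gave 2 higher members, Slc16a10 at 2.38-fold and Slc30a2 at 2.47-fold, and 0 lower, beside 0.609% and 0.427% of all genes. With intervals apart the counts were 0 and 0, beside 0.0363% and 0.0182%. Some members lay between 1.5-fold and 2-fold apart at 24 h. Slc7a3, Slc39a14 and Slc7a8 stood below their untreated values, at 27.5, 6.12 and 1.10 FPKM after 24 h, against 53.0, 10.6 and 2.31 FPKM untreated. Slc25a14, of the uncoupling protein group, stood above, at 21.4 FPKM after 24 h against 12.4 FPKM untreated. The mesoderm marker sum was also highest at 24 h, and its part in these values was not tested.

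In ESCs, LIF with BMP-4 in basal medium was set against LIF with serum, which changes both the factor and the medium, so these cannot be told apart. Of the members 4 were higher with BMP-4 and 1 lower, beside 2.61% and 1.28% of all genes, and the median log2 difference was 0.00. Slc16a3 was 5.04-fold higher, at 15.9 FPKM (4.99 to 26.7) against 2.35 FPKM (0 to 4.94), with intervals apart. It was the one such member (0.163% of all genes higher and 0.0363% lower). Slc2a8 (GLUT8, an intracellular sugar carrier) was 2.56-fold higher at 3.20 against 0.637 FPKM, and Slc25a1 2.27-fold higher at 61.8 against 26.6 FPKM. Slc43a1, described above, was also higher. The lower gene was Slc39a4, just past the threshold at 2.00-fold (6.56 against 14.1 FPKM). Of the sugar and lactate class 2 of 12 were higher, with a median of 0.24. Pdk1 was 2.29-fold higher, at 66.1 against 28.3 FPKM, with overlapping intervals. Among the 7 genes listed as working with glucose and lactate carriers it was the 1 higher, and 0 were lower, beside 2.61% and 1.28% of all genes.

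Promoters were read for what else the members share. RefSeq gave one for 117 of the 155 members, and the first listed start was used. The median number of CpG pairs in 300 bases was 21 over the members and 22 over all expressed genes. Over 144 SLC genes below the mean it was 7. Over 11 members that were higher in every EpiSC library it was 25, from 12 to 41, and over 8 that were lower it was 15.5, from 2 to 43. Over all genes that were higher or lower in every EpiSC library the medians were 21 and 16.5, so the members followed the order seen over all genes. The ranges overlap widely, and the sets are small.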

How the data were processed

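Poly(A) RNA of 5 cultures was made into directional libraries, per the labels' protocols. The authors deposited FPKM per gene with a lower bound, an upper bound and a status for each library, per the file headers, and Cufflinks defines the bounds as 95% limits. The submitters' processing notes name TopHat, Cufflinks 2.0.13, Picard, SAMtools and mm9. Which annotation, filters, strand setting and scaling were used was not given in these sources. FPKM divides by length, so genes can be set beside each other, but reads of near-identical copies may be split between them, and a value of 0 may be a failed estimate.

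Differences of log2(FPKM + 1) were taken for 6 pairs of libraries over 11011 expressed genes, less any whose status was not OK in that pair, which no member had. No test was run, as each group held 1 library. Members, classes and lists were chosen with earlier results of these data known, and the class of 5 genes that are no transporters after values were seen. Genes were named by mean level, size of difference and separation within each class, or from lists; Pkm2 was not found by symbol. Slc7a8 and Slc25a14 at 24 h and some genes called within 2-fold were chosen after their values were seen.

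Depth came from values below 0.5 FPKM of genes with 1 GENCODE M21 transcript over 1500 nt, of which 48.7 to 56.5% lay within 0.1 of a whole read, so totals are approximate. File starts count from 0 (8129 of 22460 symbols then matched RefSeq spans, 515 otherwise), and positions are written from 1. Transcripts of 154 members were compared with GENCODE M21 by blastn (identity of 97% over 100 nt), and 41 matched another gene in part. Promoters are RefSeq's on GRCm38.p6. Python 3.11.15 with pandas 2.3.3 was used, and the counts were checked on simulated data. Some genes are not reported here. The alternatives were other pseudocounts, filters, folds and scaling, and leaving out each library.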

Additional observations from a re-analysis of the deposited data

How the results depend on the processing

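No paired analysis was possible because no group had a replicate. Counts of members higher and lower depended on the pseudocount, the filter and the fold. Shares of all genes were taken at the reported setting only, so the other counts have no background beside them. Whether the members stand above the background at those settings was not tested. In the order higher and lower, the counts as reported were 26 and 15 for untreated EpiSCs against ESCs with serum, 24 and 18 for untreated EpiSCs against ESCs with BMP-4, 4 and 1 for ESCs with BMP-4 against serum, 2 and 1 for 24 h against untreated, 2 and 0 for 24 h against 1.5 h, 15 and 12 for every EpiSC against both ESC libraries. With a pseudocount of 0.1 FPKM they were 31 and 19 for untreated EpiSCs against ESCs with serum, 31 and 20 for untreated EpiSCs against ESCs with BMP-4, 10 and 4 for ESCs with BMP-4 against serum, 4 and 2 for 24 h against untreated, 3 and 1 for 24 h against 1.5 h, 24 and 14 for every EpiSC against both ESC libraries. With 5 FPKM they were 8 and 6 for untreated EpiSCs against ESCs with serum, 8 and 6 for untreated EpiSCs against ESCs with BMP-4, 2 and 0 for ESCs with BMP-4 against serum, 0 and 1 for 24 h against untreated, 0 and 0 for 24 h against 1.5 h, 5 and 2 for every EpiSC against both ESC libraries. Over members with a mean of at least 5 FPKM, a smaller set, they were 11 and 8 for untreated EpiSCs against ESCs with serum, 13 and 8 for untreated EpiSCs against ESCs with BMP-4, 2 and 1 for ESCs with BMP-4 against serum, 0 and 1 for 24 h against untreated, 0 and 0 for 24 h against 1.5 h, 10 and 6 for every EpiSC against both ESC libraries. Over all 345 rows they were 28 and 23 for untreated EpiSCs against ESCs with serum, 24 and 26 for untreated EpiSCs against ESCs with BMP-4, 4 and 2 for ESCs with BMP-4 against serum, 2 and 1 for 24 h against untreated, 2 and 0 for 24 h against 1.5 h, 15 and 16 for every EpiSC against both ESC libraries. At 1.5-fold they were 41 and 29 for untreated EpiSCs against ESCs with serum, 44 and 32 for untreated EpiSCs against ESCs with BMP-4, 14 and 7 for ESCs with BMP-4 against serum, 3 and 4 for 24 h against untreated, 3 and 3 for 24 h against 1.5 h, 31 and 21 for every EpiSC against both ESC libraries. Scaling the libraries by their median ratio left Slc39a4 just under 2-fold in ESCs, so 0 members were lower with BMP-4, and no other count moved by over 1.5 times. It moved the median of all genes by at most 0.04 on the log2 scale. Leaving out 1 library at a time gave 15 to 19 members higher and 12 to 16 lower in every EpiSC library left. Leaving out the 5 genes that are no transporters, an alternative chosen after the data were seen, changed no count. No member's difference at or past 2-fold changed sign with a pseudocount of 0.1 FPKM or with scaling, and 3 class medians close to 0, all in comparisons within a cell type, changed sign with scaling. Depth limits members at 1 to 5 FPKM most, whose upper bounds lay a median of 114% above the value.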

Other observations

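Among SLC rows below the mean of 1 FPKM, several that reached 1 FPKM in some library stood apart by cell type. Slc52a3, a riboflavin carrier, ranged over 0.117 to 0.143 FPKM in EpiSCs and 1.72 and 1.93 FPKM in ESCs (BMP-4, serum). Slc12a8 ranged over 0.0661 to 0.117 FPKM in EpiSCs and 1.42 and 1.64 FPKM in ESCs (BMP-4, serum). Slc11a1, the divalent metal carrier of phagosomes, was listed at 0 at 1.5 h, had at most 0.0448 FPKM in the other EpiSC libraries and stood at 1.23 and 1.29 FPKM in ESCs with BMP-4 and with serum. Slc1a1, a glutamate carrier, ranged over 0.0480 to 0.0592 FPKM in EpiSCs and 1.06 and 1.89 FPKM in ESCs (BMP-4, serum). Slc4a4, a sodium-bicarbonate carrier, ran the other way at 1.01 to 1.36 FPKM in EpiSCs and 0.144 and 0.0755 FPKM in ESCs (BMP-4, serum), and so did Slc18a1, a vesicular amine carrier, at 0.838 to 1.28 FPKM in EpiSCs and 0.213 and 0.112 FPKM in ESCs (BMP-4, serum). These genes were chosen after their values were seen, and at such levels the deposited intervals are wide.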
